A study of Rattus norvegicus with 2 samples.

Results

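The 6 genes described here act on the formation of mineral or on the handling of phosphate. They are the calcification inhibitors Mgp and Spp1, the pyrophosphate transport gene Ankh, the scaffold genes Nherf1 and Pdzk1, and the receptor gene Fgfr3. They were chosen by gene symbol, and each matched 1 entry by its Entrez identifier, so that 6 of 7803 genes with a usable identifier are covered. RNA was sequenced from H9c2, a rat myoblast line that came from embryonic heart. The high phosphate culture received 2.5 mM phosphate and the control culture 0.9 mM phosphate, both in DMEM without serum and both for 12 h. There was 1 library per phosphate level. No difference given here therefore has a replicate check, no test between conditions was possible, and the culture and the phosphate level cannot be told apart.

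Soft tissue is kept free of mineral by inhibitors that act outside the cell. Matrix Gla protein binds calcium once its glutamate residues have been carboxylated in a vitamin K-dependent reaction, osteopontin is an acidic phosphorylated protein that binds to mineral surfaces, and pyrophosphate blocks the growth of hydroxyapatite crystals. In renal tubule, PDZ scaffold proteins hold sodium-phosphate cotransporters at the apical membrane, and fibroblast growth factor (FGF) receptors transmit the signal of the phosphate-regulating hormone FGF23 together with klotho. Raised phosphate promotes calcification in vascular smooth muscle cells, which makes these genes of interest in a muscle line exposed to it.

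Values are FPKM, sequenced fragments scaled for transcript length and library size, so levels can be compared between genes. The difference between the libraries was taken as log2((high phosphate FPKM + 1)/(control FPKM + 1)), called the log2 ratio. A gene was called measured from a mean of 1 FPKM over both libraries, and was called higher or lower where that scale put the libraries at least 2-fold apart. All 6 genes were measured, among 4366 genes in all. The listed FPKM summed to 346857 in the high phosphate and 307622 in the control library. The read number behind each value is unknown.

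Of the 6 genes, 1 was at least 2-fold higher in high phosphate (Mgp) and 0 were lower. Over all measured genes 1.76% were called higher and 0.870% lower, that is 77 and 38 genes. With the high phosphate library rescaled to the listed FPKM sum of the control, 54 were higher and 56 lower, and the median log2 ratio of all measured genes moved to -0.15. The median log2 ratio of the 6 genes was 0.09, beside 0.00 over all measured genes, and 4 of the 6 were above 0 and 2 below, where 50.5% of all measured genes were above 0. At equal sums 2 of the 6 were above 0 and 4 below, with a median of -0.07, and 32.2% of all measured genes were above 0. The genes spanned very different levels. Spp1 was the 28th most abundant measured gene in high phosphate and the 20th in the control, Nherf1 lay in the middle range, and Mgp, Ankh, Pdzk1 and Fgfr3 were low, each under 3 FPKM in the control.

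**Figure D1:**
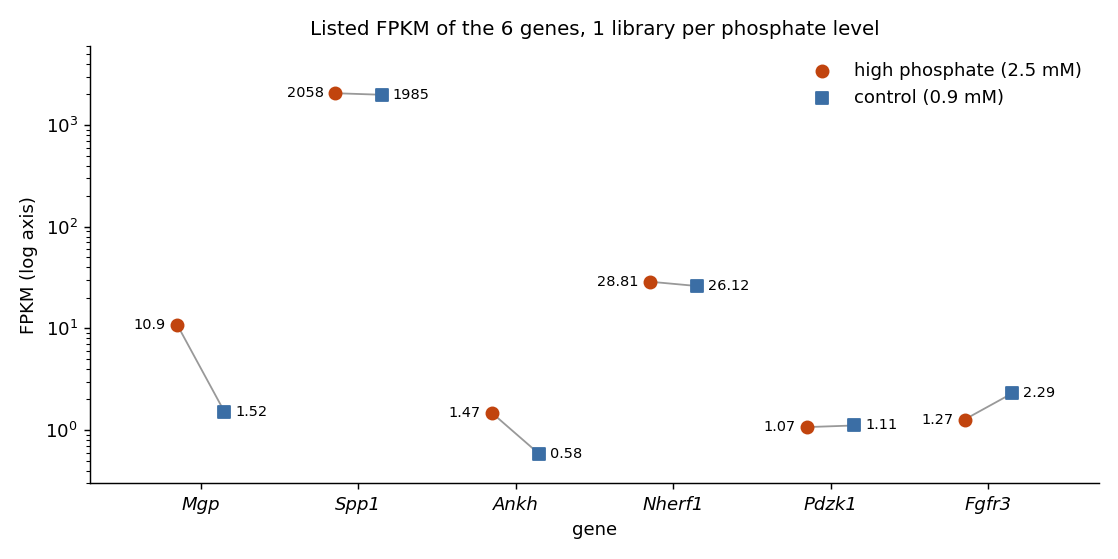
FPKM on a log axis for each of the 6 genes, with the high phosphate library as a circle and the control library as a square, 1 library each and no error bars. Mgp stands at 10.9 FPKM in high phosphate and 1.52 FPKM in the control, while the symbols of Spp1, Nherf1 and Pdzk1 lie nearly level.

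The promoters of 5 of the 6 genes were found in a RefSeq table for the rat assembly GRCr8. They are described over the 250 bases before the annotated start, beside 33465 promoters of that table. GC content was 79.2% for Ankh, 74.4% for Fgfr3, 64.8% for Nherf1, 52.8% for Pdzk1 and 46.8% for Spp1, where the median promoter had 51.2%. The CG dinucleotide occurred 45 times in the Ankh window, 26 times in that of Fgfr3, 23 times in that of Nherf1, 7 times in that of Spp1 and 2 times in that of Pdzk1. Spp1 is shown as the most abundant of the 6 genes, and Ankh and Fgfr3 as the genes with the largest differences among those with a promoter in the table. Capitals mark matches, on either strand, to ACGTG and GCGTG (the core of sites for hypoxia-inducible factors), TGTGGT and TGCGGT (the core of RUNX sites) and TATAAA.
Spp1, GRCr8 chr14:5619805-5620054, minus strand: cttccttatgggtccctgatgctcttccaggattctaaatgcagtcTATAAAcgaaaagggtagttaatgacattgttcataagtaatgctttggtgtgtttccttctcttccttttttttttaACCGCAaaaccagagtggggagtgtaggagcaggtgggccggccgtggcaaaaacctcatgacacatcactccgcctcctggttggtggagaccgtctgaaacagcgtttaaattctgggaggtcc
Ankh, GRCr8 chr2:79883201-79883450, plus strand: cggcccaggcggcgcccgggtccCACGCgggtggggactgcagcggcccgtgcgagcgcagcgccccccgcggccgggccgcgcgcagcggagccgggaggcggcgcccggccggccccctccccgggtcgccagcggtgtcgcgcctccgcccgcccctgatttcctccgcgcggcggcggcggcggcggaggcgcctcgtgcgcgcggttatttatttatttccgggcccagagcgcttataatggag
Fgfr3, GRCr8 chr14:81227210-81227459, minus strand: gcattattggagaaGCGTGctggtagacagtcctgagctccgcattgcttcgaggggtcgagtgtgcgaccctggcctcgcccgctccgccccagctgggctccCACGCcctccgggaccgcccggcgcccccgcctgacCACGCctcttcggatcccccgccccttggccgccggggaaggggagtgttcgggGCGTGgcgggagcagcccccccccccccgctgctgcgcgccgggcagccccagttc

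Spp1 held 1 match to TGCGGT, which begins 126 bases before the start, and 1 to TATAAA, which begins 204 bases before it. Over all promoters, 5.02% held TGCGGT and 12.9% TATAAA. Ankh held 1 match to GCGTG and Fgfr3 held 4, where 25.9% of promoters held at least 1. GCGTG holds a CG, and the median promoter had 5 CG dinucleotides, beside 45 for Ankh and 26 for Fgfr3. The share is over all promoters and not over promoters as rich in CG. Whether such promoters hold as many matches was not tested. Nherf1 held 2 matches to TGCGGT. Pdzk1 held 1 match to ACGTG and 1 to TGTGGT, which overlap each other, and these motifs occurred in 16.6% and 14.5% of promoters. A match is a run of letters and not a measured site.

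Mgp encodes matrix Gla protein, which inhibits calcification of cartilage and arterial wall. It was listed at 10.9 FPKM in high phosphate and 1.52 FPKM in the control, a ratio of 7.17 in listed FPKM. Its log2 ratio was 2.24, the 7th highest of 4366 measured genes. Of 1276 other genes whose mean FPKM lay within 2-fold of that of Mgp, 4 had a log2 ratio at least as high, and the central 95% of them ran from -0.70 to 0.97. That mean, 6.21 FPKM, rests mostly on the high phosphate value, so these genes are not matched to the control level of Mgp. The count is thus no test of the difference. By level Mgp ranked 2458 of 4366 measured genes in high phosphate and 4058 in the control. With pseudocounts of 0.1 and 0.5 and with 4 rescalings its log2 ratio stayed between 2.08 and 2.76, and it passed 2-fold each time.

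Mgp is made by chondrocytes and smooth muscle cells, among others. In bulk RNA, more cells of a type and more RNA per cell cannot be told apart. Of 5 chondrocyte markers 2 were listed, and their FPKM summed to 0.04 in high phosphate and 0.04 in the control. Of 5 smooth muscle markers 4 were listed, summing to 3839 FPKM in high phosphate and 2520 FPKM in the control. The 3 measured ones had log2 ratios of 0.69 (Acta2), 0.52 (Cnn1) and 0.44 (Tagln), all above 0 and under 2-fold. Myh11, the smooth muscle myosin heavy chain, was not measured, at 0.61 FPKM in high phosphate and 0.60 FPKM in the control. The part of the smooth muscle genes in the difference of Mgp was not tested. Of 7 osteoblast markers 5 were listed, summing to 0.36 FPKM in high phosphate and 0.48 FPKM in the control. The osteoblast factor Sp7 and alkaline phosphatase Alpl were listed at 0 in both libraries.

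Spp1 encodes osteopontin, a secreted protein of bone, macrophages and injured muscle that binds integrins and CD44. It was listed at 2058 FPKM in high phosphate and 1985 FPKM in the control. The libraries were nearly level, with a log2 ratio of 0.05 and a ratio of listed FPKM of 1.04. With equal sums of listed FPKM its log2 ratio was -0.12, and with equal sums after leaving out the 100 most abundant genes it was -0.04, so no direction can be given. It held 0.593% of all listed FPKM in high phosphate and 0.645% in the control. Of 58 other genes with a mean within 2-fold of that of Spp1, 52 had a log2 ratio at least as high as Spp1.

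In the order of genes on GRCr8, Spp1 is followed by Mepe, Ibsp and Dmp1, which encode other acidic phosphoproteins of bone and tooth. Mepe was listed at 0.02 FPKM in both libraries, Ibsp at 0.21 FPKM in both, and Dmp1 at 0.03 FPKM in high phosphate and 0 in the control. Spp1 was thus the only listed gene of that group above 1 FPKM. Of 7 macrophage markers 4 were listed, summing to 1.67 FPKM in high phosphate and 1.18 FPKM in the control, with the leukocyte gene Ptprc at 0 in both and Cd68 at 1.38 FPKM in high phosphate and 1.06 FPKM in the control.

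Ankh encodes a membrane protein that brings about the release of ATP and pyrophosphate from cells. It was listed at 1.47 FPKM in high phosphate and 0.58 FPKM in the control. The listed values were 2.53-fold apart, and listed FPKM were at least 2-fold higher for 3.71% of all measured genes, while the log2 ratio with the added 1 was 0.64, under 2-fold. That value passes 1.5-fold, as did 7.21% of all measured genes. Its call thus depended on the pseudocount. With a pseudocount of 0.1 the log2 ratio was 1.21, past 2-fold, where 3.46% of all measured genes were called higher. Of 833 other genes with a mean within 2-fold of that of Ankh, 84 had a log2 ratio at least as high, and the central 95% of these genes ran from -1.20 to 1.22. Ankh therefore lay inside the spread of genes of a similar mean, which were taken from all usable identifiers and include genes not measured. Ankh itself counts as measured only through high phosphate, as its control value of 0.58 FPKM lies under the filter. These genes are not matched to its control level, so the comparison is no test of the difference.

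**Figure D2:**
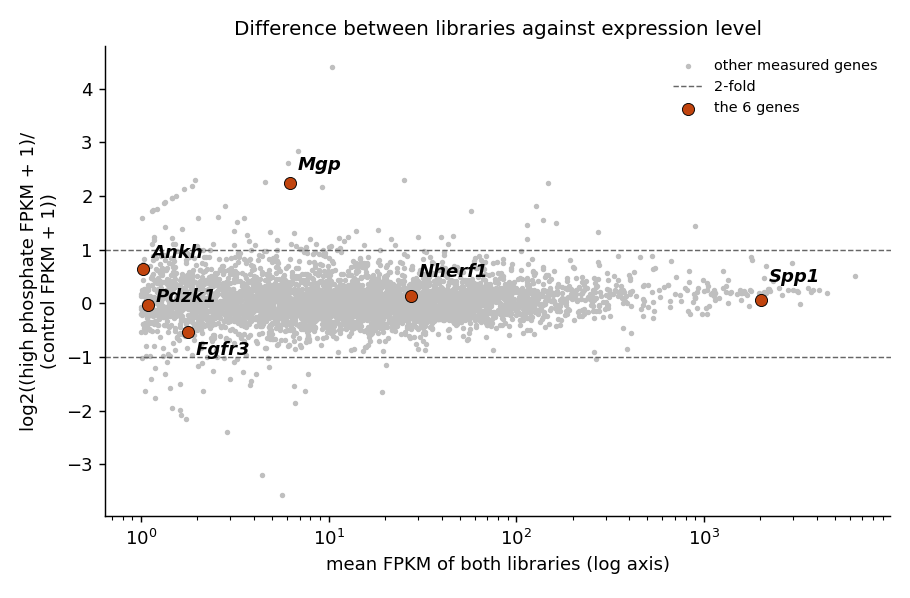
The log2 ratio of high phosphate over control against the mean FPKM of both libraries (log axis) for 4366 measured genes in grey and the 6 genes in red, with dashed lines at 2-fold. Mgp stands above the upper line at 2.24, and the other 5 genes lie between the lines.

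Nherf1 and Pdzk1 encode PDZ scaffold proteins that bind sodium-phosphate cotransporters in kidney. Nherf1 was listed at 28.8 FPKM in high phosphate and 26.1 FPKM in the control, with a log2 ratio of 0.14. This sign also rested on the scaling, as the log2 ratio was -0.03 at equal sums. Pdzk1 was listed at 1.07 FPKM in high phosphate and 1.11 FPKM in the control, with a log2 ratio of -0.03. The difference of 0.04 FPKM lies near the step of 0.01 FPKM to which the files are rounded. Both scaffold genes differed little, and Nherf1 was the far more abundant of the pair in each library. Of their cotransporter cargo in kidney, Slc34a1 was not analysed here, and neither were the phosphate carriers Slc20a1 and Slc20a2.

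Fgfr3 encodes a receptor tyrosine kinase for FGF ligands that restrains the growth of cartilage. It was listed at 1.27 FPKM in high phosphate and 2.29 FPKM in the control, and the control value was 1.80 times that of high phosphate. Its log2 ratio of -0.54 was the lowest of the 6 genes and stood 183rd from the bottom of all measured genes. The values are low, and 77 of 923 other genes with a mean within 2-fold of that of Fgfr3 had a log2 ratio at least as low. The central 95% of those genes ran from -1.04 to 1.11. Under the same pseudocounts and rescalings the log2 ratio of Fgfr3 ran from -0.80 to -0.54 and never reached 2-fold.

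**Figure D3:**
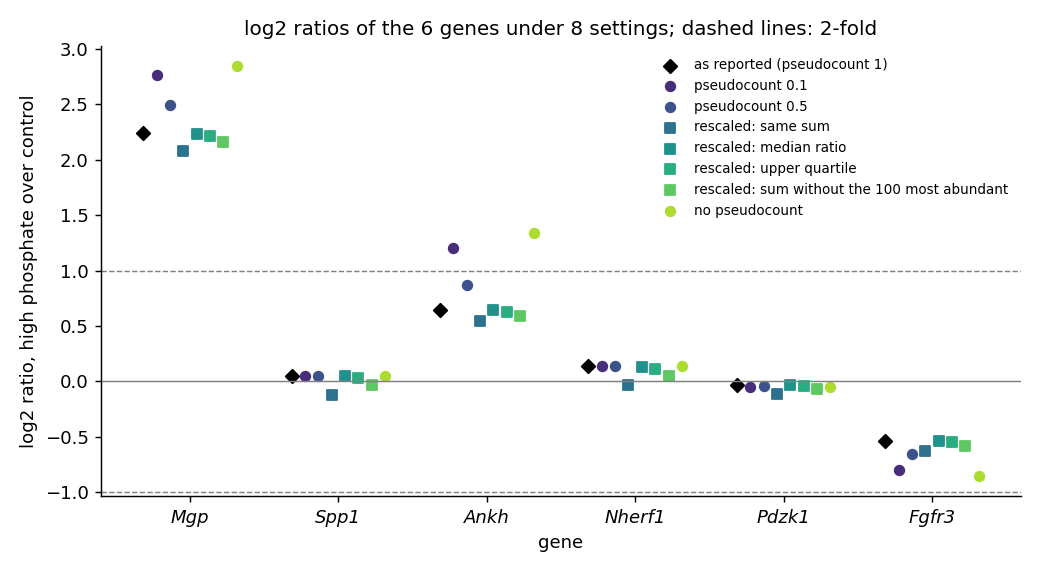
The log2 ratio of high phosphate over control for each of the 6 genes with other pseudocounts (circles) and rescalings of the libraries (squares), beside the value as reported (black diamond), with dashed lines at 2-fold. Mgp is past 2-fold in every setting shown, Ankh passes the line with a pseudocount of 0.1 and with none, and Spp1 and Nherf1 cross 0 after some rescalings.

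For each of the 6, the gene with the most similar pair of values was found by the larger of the differences in log2(FPKM + 1) over the 2 libraries. For Mgp it was Hnrnpa3, an RNA-binding protein gene, with 11.2 FPKM in high phosphate and 0.98 FPKM in the control (larger difference 0.35). For Spp1 it was the ribosomal protein gene Rps12, with 2164 FPKM in high phosphate and 1942 FPKM in the control (0.07). For the other genes the nearest were Igtp for Ankh, Nid2 for Nherf1, Fgd6 for Pdzk1 and Ceacam1 for Fgfr3, with larger differences from 0.01 to 0.03. Mgp had the most distant nearest gene of the 6. With 2 libraries such a likeness rests on a pair of values.

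Around the 6 genes, 7 lists of functionally related genes were examined. They name 129 other genes, of which 55 were listed and 32 measured. Of these 32, 0 were at least 2-fold higher and 1 was lower, Fgf7. Over all measured genes 1.76% were called higher and 0.870% lower, so among 32 genes these counts carry no result. The median log2 ratio of the 32 was 0.07, with 18 above 0 and 14 below, and with 13 above and 19 below at equal sums. Of all measured genes 50.5% were above 0 as deposited and 32.2% at equal sums. These shares also stand beside the counts of the single lists below.

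The list built on Mgp covers vitamin K-dependent proteins and the enzymes that carboxylate them. Of its 6 measured genes, 5 were above 0 as deposited and 4 at equal sums, beside 50.5% and 32.2% of all measured genes. The median log2 ratio, with Mgp included, was 0.39 as deposited and 0.22 at equal sums. Only 1 of these genes was at least 2-fold higher, Mgp itself. The carboxylase Ggcx was listed at 50.4 FPKM in high phosphate and 33.4 FPKM in the control. Vkorc1, the reductase that recycles vitamin K, was listed at 88.6 FPKM in high phosphate and 60.6 FPKM in the control. Their log2 ratios of 0.58 and 0.54 were under 2-fold, and this pair was chosen for mention after the values were seen. The quinone reductase Nqo1 was lowest of the list, with 180 FPKM in high phosphate and 340 FPKM in the control (log2 ratio -0.91).

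In the list of calcification inhibitors and osteogenic regulators, 7 genes were measured and 7 other listed genes were under 1 FPKM on average. Above 0 as deposited were 6 of the 7, and 3 at equal sums, beside 50.5% and 32.2% of all measured genes. Mgp was highest and the homeobox gene Msx1 lowest, with 1.80 FPKM in high phosphate and 2.40 FPKM in the control. Sparc, a collagen-binding matrix protein gene, was second to Mgp, with 592 FPKM in high phosphate and 326 FPKM in the control (log2 ratio 0.86), and was chosen after its value was seen. Osteopontin's partners were covered by 3 measured genes. Of these, the protease Mmp9 was listed at 2.47 FPKM in high phosphate and 0.99 FPKM in the control (log2 ratio 0.80). It counts as measured only through high phosphate. The receptor Cd44 was listed at 127 FPKM in high phosphate and 152 FPKM in the control (log2 ratio -0.26).

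Beside Ankh, the list of pyrophosphate and phosphate transport held 1 measured gene, the inorganic pyrophosphatase Ppa1. It was listed at 76.8 FPKM in high phosphate and 85.1 FPKM in the control, with a log2 ratio of -0.15. The mitochondrial phosphate carrier Slc25a3 was listed at 0.25 FPKM in high phosphate and 0.42 FPKM in the control. Mitochondria of nearly all cells use this carrier, and values near 0 in such files can be failed estimates, which also bears on other low values given here.

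Of the 9 measured NHERF scaffolds and partners, 0 were 2-fold apart, and their log2 ratios ran from -0.06 for radixin (Rdx) to 0.25 for beta-catenin (Ctnnb1). Ezrin, encoded by Ezr, links Nherf1 to actin and was listed at 50.4 FPKM in high phosphate and 44.3 FPKM in the control. Of the scaffold list, 4 genes were above 0 and 5 below as deposited, with a median log2 ratio of -0.02, and 2 were above and 7 below at equal sums, with a median of -0.11.

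Of the 11 measured genes of the FGF list, 5 were above 0 and 6 below, with a median log2 ratio of -0.11. At equal sums 4 were above 0 and 7 below, with a median of -0.27. Its lowest member was the ligand Fgf7, listed at 0.16 FPKM in high phosphate and 2.09 FPKM in the control (log2 ratio -1.41), which counts as measured only through the control. The highest was the decoy receptor Fgfrl1, at 3.62 FPKM in high phosphate and 1.85 FPKM in the control (log2 ratio 0.70). Fgfr3 and Fgfrl1 thus lay on opposite sides of 0, both under 2-fold. Fgfr4 was listed at 0 in high phosphate and 0.03 FPKM in the control, and klotho, encoded by Kl, at 0 in high phosphate and 0.01 FPKM in the control. Of the list of phosphate hormones and vitamin D, 1 gene was measured, the kinase gene Sgk1, with 22.7 FPKM in high phosphate and 42.3 FPKM in the control (log2 ratio -0.87).

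**Figure D4:**
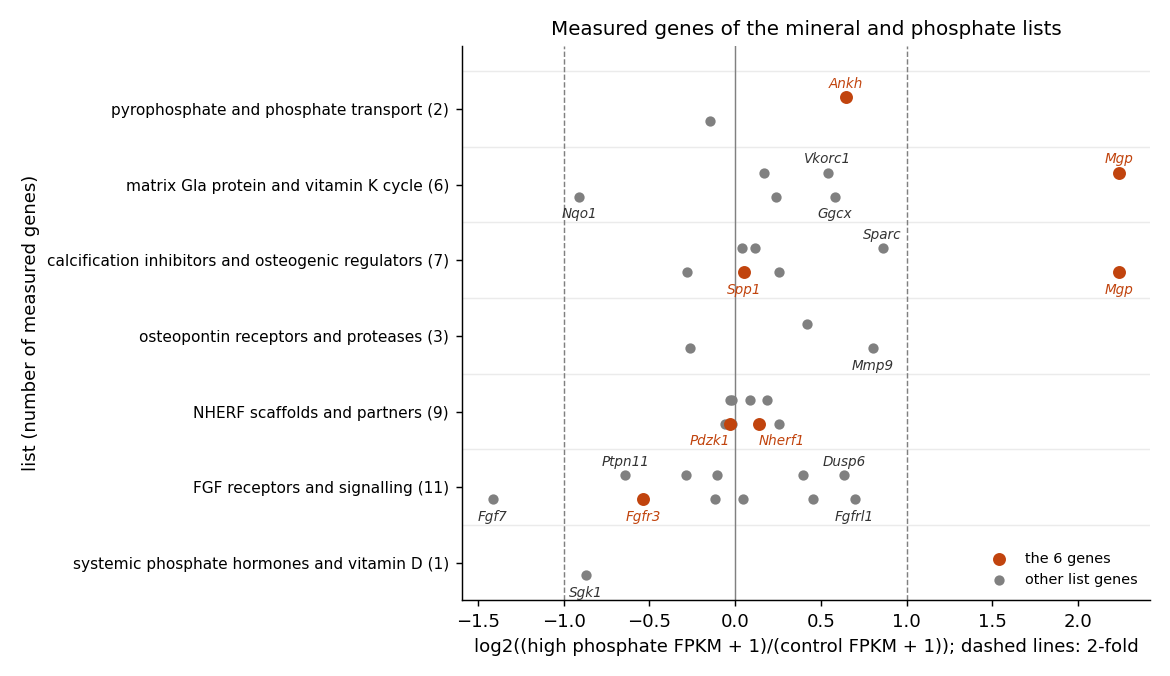
The log2 ratio of high phosphate over control for each measured gene of the 7 lists, 1 point a gene, with the 6 genes in red, the number of measured genes in parentheses and dashed lines at 2-fold. Mgp, which stands in 2 lists, is the 1 gene right of the 2-fold line on the right, and Fgf7 the 1 gene left of that on the left.

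The labels call the cells cardiomyoblasts. Of 11 cardiomyocyte markers 3 were listed, all near 0 in both libraries, among them Myh7 and Ryr2 at 0. Of 7 skeletal myoblast markers 4 were listed. Desmin (Des) was listed at 153 FPKM in high phosphate and 129 FPKM in the control, and Myod1 at 1.59 FPKM in high phosphate and 6.11 FPKM in the control (log2 ratio -1.46, past 2-fold lower). Myog was listed at 0.06 FPKM in high phosphate and 0.13 FPKM in the control, and Chrna1 at 0.21 FPKM in high phosphate and 0.45 FPKM in the control. No listed cardiomyocyte marker was measured in these cells. Endothelial markers summed to 0.36 FPKM in high phosphate and 0.08 FPKM in the control.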

How the data were processed

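Each library was deposited by the authors as FPKM per Entrez gene, per the file headers, rounded to 0.01. Per the submitters' processing notes, the build was Rnor_6.0 and the tools included Cufflinks 2.2.1, Cuffdiff, TopHat2 2.1.1 and bcl2fastq. For the annotation, strand setting, multiply mapped reads and scaling between libraries, details were not given in the sources used here. There were 8039 entries, and 236 without a usable identifier were left out. Symbols came from a RefSeq table for GRCr8, which matched 7746 of 7803 identifiers and was used for names and gene order. Its promoter table gave the sequences.

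The log2 ratio used a pseudocount of 1 FPKM, a mean of at least 1 FPKM and a 2-fold threshold, with no p-value. Genes 2-fold apart, and the highest and lowest of each list, were named. The genes, lists, motifs and settings were chosen with earlier results of these data known. The rules were run on simulated data only to check the code. Without replicates, that run gives no error rate for the calls in these libraries. It is no check of the low values of Ankh, Pdzk1 and Fgfr3. Calculations used Python 3.11.15, numpy 2.4.6, pandas 2.3.3 and matplotlib 3.10.9.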

Additional observations from a re-analysis of the deposited data

How the results depend on the processing

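The call of Mgp, and the absence of a lower gene among the 6, held under every alternative run. Each run changed 1 setting, and combined changes were not tried. With a pseudocount of 0.1, 2 of the 6 genes were called higher (Mgp and Ankh), as were 151 of all measured genes and 1 other list gene (Mmp9), and 62 of all genes were lower. Without any pseudocount, a setting added after the data were seen, the same 2 of the 6 genes were higher. At 1.5-fold, 2 of the 6 genes (Mgp and Ankh), 315 of all genes and 4 other list genes were higher, and 147 of all genes and 4 other list genes lower. At 3-fold, 25 of all genes were higher and 13 lower, with 0 other list genes lower. With a filter at a mean of 5 FPKM, 41 of all genes were higher and 8 lower, with 0 other list genes lower. This is because Fgf7 falls under that filter, as do Ankh, Pdzk1 and Fgfr3. Mgp stays in only through high phosphate, as its control value of 1.52 FPKM lies under the filter, so its call there is no separate check. As Fgfr3 is left out by that filter, the absence of a lower gene among the 6 is no check there either. At equal sums of listed FPKM, 54 of all genes were higher and 56 lower, and 3 other list genes were lower (Fgf7, Nqo1 and Sgk1). Where no cause is given, the cause was not tested. No paired analysis was possible because each phosphate level had 1 library. The depth is unknown, and Mgp (control), Ankh, Pdzk1 and Fgfr3 have values under 3 FPKM.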

Other observations

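Up to 4 protein-coding genes on each side of the 6 genes, in the order of GRCr8, were looked up. Of these neighbours 21 were listed, 8 were above 1 FPKM in both libraries and 0 were 2-fold apart. With the added 1, a gene under 1 FPKM in both libraries cannot come out 2-fold apart. For such neighbours the outcome was thus fixed in advance. Among all measured genes, 1.76% were called higher and 0.870% lower, so 0 calls among 8 genes carry no result. Of the 8 nearest protein-coding genes of Mgp, 4 on each side, 4 were listed, with log2 ratios from -0.07 to 0.40. All 4 were under 1 FPKM in both libraries, so a difference there could not have been called. On the side of Spp1 away from Mepe lies Pkd2, the polycystin-2 cation channel gene, which was listed at 24.3 FPKM in high phosphate and 41.7 FPKM in the control (log2 ratio -0.76). Near Pdzk1, the connexin gene Gja5 was listed at 52.0 FPKM in high phosphate and 38.2 FPKM in the control (log2 ratio 0.43), and the RNA polymerase III subunit gene Polr3c at 2.43 FPKM in high phosphate and 4.37 FPKM in the control (log2 ratio -0.65). Around Fgfr3, 4 neighbours were listed, all above 1 FPKM in both libraries, with log2 ratios from -0.09 to 0.24. Genes named here were picked with their values in view.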
